A study of Homo sapiens with 12 samples.

Results

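The 8 genes described here code for proteins of the red cell membrane, most of which carry blood group antigens. They were chosen by name, as GYPB, GYPC, RHAG, RHCE, ANK1, SLC4A1, EPB42 and KEL, and all 8 were found among the 60671 genes of the count table. All 8 were also among the 18626 genes with enough counts to be tested. RNA-seq was performed on 12 samples, 4 replicates each of 3 human leukemia lines. K562 is the parental line. K/VP.5 is an etoposide-resistant clone selected from K562 by exposure to the drug, and K562/SSedit-2 is a single clone of K562 in which the 5′ splice site at the boundary of exon 19 and intron 19 of TOP2A was edited with Cas9 and a repair template. All 3 lines were grown in DMEM with 10% FBS and harvested in mid-log phase, and no drug treatment of the sequenced samples is given in the labels. Each derived line is 1 clone, so an effect of the selection or the edit and a difference between clones cannot be told apart.

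Red cells hold their shape through a spectrin network under the plasma membrane. The network is tied to the lipid bilayer by a complex of band 3 (SLC4A1), ankyrin (ANK1) and EPB42, which also holds the Rh proteins, and by a junctional complex that contains glycophorin C (GYPC). The extracellular parts of several of these proteins carry blood group antigens (Rh on RHCE, Ss on GYPB, Gerbich on GYPC, Diego on band 3, Kell on KEL). K562 cells resemble early erythroid cells and transcribe part of this program, and GATA, KLF and TAL1 factors are known to control many of its genes.

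Promoter windows, 250 bases before to 50 after a transcript start, were available from RefSeq (GRCh38.p14) for 6 of the 8 genes: GYPB, GYPC, RHAG, RHCE, EPB42 and KEL. The windows were searched on both strands for GATA motifs (AGATAA, with A or T allowed first and A or G allowed last), for CACCC, which KLF factors bind, and for the E-box CAGNTG. All 6 genes had a GATA motif in at least 1 window, where 25.0% of the 35116 windows in the table had one. All 6 also had CACCC, as did 59.9% of all windows, and 2 of the 6 (GYPB and GYPC) had an E-box, as did 49.9%. These matches are letters in a window and were not tested as binding sites. GYPB and RHCE have 2 windows each, so the counts of genes and the shares of windows are unlike measures. Of the 2 GYPB windows, only the first has CACCC. The first window of 4 genes is printed on the coding strand, 5′ to 3′, with GATA and CACCC matches on either strand in capitals. GYPB and RHCE are shown because each rose in at least 1 derived line, and EPB42 and KEL because they were higher in K562/SSedit-2 than in the other 2 lines. The windows are chr4:144019331-144019630 for GYPB, chr1:25420886-25421185 for RHCE, chr15:43220969-43221268 for EPB42 and chr7:142962314-142962613 for KEL, all on the minus strand.
GYPB: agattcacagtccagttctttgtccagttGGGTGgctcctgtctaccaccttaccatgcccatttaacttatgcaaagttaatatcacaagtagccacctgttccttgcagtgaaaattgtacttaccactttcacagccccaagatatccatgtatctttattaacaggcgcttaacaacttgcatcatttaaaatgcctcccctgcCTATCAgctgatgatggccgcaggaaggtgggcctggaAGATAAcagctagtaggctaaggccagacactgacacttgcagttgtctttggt
RHCE: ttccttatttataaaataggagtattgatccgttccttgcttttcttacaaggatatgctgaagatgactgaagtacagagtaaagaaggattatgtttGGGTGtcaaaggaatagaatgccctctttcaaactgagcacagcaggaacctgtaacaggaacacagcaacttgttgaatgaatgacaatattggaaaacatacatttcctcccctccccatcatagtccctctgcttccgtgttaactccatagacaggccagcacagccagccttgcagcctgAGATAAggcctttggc
EPB42: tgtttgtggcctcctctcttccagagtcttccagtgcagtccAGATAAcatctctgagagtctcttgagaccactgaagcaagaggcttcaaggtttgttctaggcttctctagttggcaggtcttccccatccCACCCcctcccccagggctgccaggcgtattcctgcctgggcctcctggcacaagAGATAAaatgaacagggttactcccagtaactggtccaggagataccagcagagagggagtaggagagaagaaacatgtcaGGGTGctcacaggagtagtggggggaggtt
KEL: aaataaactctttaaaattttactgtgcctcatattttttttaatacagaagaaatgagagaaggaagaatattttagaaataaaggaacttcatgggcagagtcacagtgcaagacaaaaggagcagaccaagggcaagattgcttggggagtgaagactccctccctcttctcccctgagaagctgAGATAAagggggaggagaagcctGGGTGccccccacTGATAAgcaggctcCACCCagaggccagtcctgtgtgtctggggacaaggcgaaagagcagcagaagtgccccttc
In GYPB, the capitals CTATCA begin 42 bases before the start and hold the motif on the other strand. The second motif, AGATAA, begins 4 bases before it. The E-box nearest to the start on its upstream side, CAGCTG, overlaps the end of the first motif. In RHCE, the only GATA match of the window shown, AGATAA, begins 35 bases after the start. In EPB42, AGATAA occurs at 208 and 61 bases before the start. In KEL, AGATAA at 62 and TGATAA at 26 bases before the start lie on either side of the reverse complement of CACCC.

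In GRCh38 with GENCODE 44 annotation, the genes lie on 8 different chromosomes and all are protein-coding. RHAG (ENSG00000112077) spans chr6:49605175-49636839 on the minus strand and RHCE (ENSG00000188672) spans chr1:25362249-25430192 on the minus strand, each with 10 exons in the canonical transcript. ANK1 (ENSG00000029534) is at chr8:41653220-41896741 on the minus strand with 43 exons, SLC4A1 (ENSG00000004939) at chr17:44248390-44268141 on the minus strand with 20 exons, and EPB42 (ENSG00000166947) at chr15:43197227-43221018 on the minus strand with 13 exons. GYPB (ENSG00000250361) is at chr4:143996104-144019380 on the minus strand with 5 exons. GYPC (ENSG00000136732) is at chr2:126656133-126696667 on the plus strand with 4 exons. KEL (ENSG00000197993) is at chr7:142941114-142962363 on the minus strand with 19 exons.

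The 12 libraries held 28981722 to 43648830 counts in genes, so that 3 counts corresponded to 0.0691 to 0.102 CPM, the count of a gene relative to the scaled library size. K562/SSedit-2 replicate 4 stood apart, since all of its 25637 nonzero gene counts were even and no gene had a count of 1. In the other 11 libraries, 44.3 to 45.8% of nonzero counts were even and 3905 to 4574 genes had a count of 1. Its counts were used as deposited, and results of the 8 genes that change their side of the threshold when it is left out are given both ways. For the pathway lists, counts that change without it and K562 replicate 1 together are given. K562 replicate 1 was the least like its own line, with a mean correlation of 0.986 with the other K562 replicates. TOP2A, the edited gene, was at 352 to 488 CPM in K562, 268 to 282 CPM in K/VP.5 and 177 to 208 CPM in K562/SSedit-2. The summed level of 9 K562 marker genes was 4170 to 5140 CPM in K562, 3930 to 4170 CPM in K/VP.5 and 5330 to 5810 CPM in K562/SSedit-2. TFRC was the largest part of these sums, with means of 2659, 1880 and 3419 CPM in the same order, so the sums mostly follow that gene. Relative to K562, 6 of the 9 had a log2 fold change above 0 in K/VP.5 and 7 of the 9 in K562/SSedit-2. Of 9 markers of T cells, B cells, monocytes, fibroblasts and epithelium, 5 had enough counts to be tested. CD3E, MS4A1, CD79A and CD14 were at or under 17 counts in every library. The 5 tested markers summed to 30.7 to 57.9 CPM in K562, 57.1 to 68.4 CPM in K/VP.5 and 45.5 to 62.8 CPM in K562/SSedit-2. Of them, COL1A1 and COL1A2 rose and CD3D fell in K/VP.5. CDH1 was also called higher in K/VP.5, and lower in K562/SSedit-2, a call lost without K562 replicate 1 and K562/SSedit-2 replicate 4. It had 43 counts over the K562 replicates, 130 over those of K/VP.5 and 11 over those of K562/SSedit-2. CDH1 may thus have had enough counts to be tested only through K/VP.5, and its calls are not relied on. The part of such cells in the results was not tested. In bulk RNA, fewer cells that express a gene and less RNA per cell cannot be told apart. The labels do not say whether replicates came from separate cultures, so p-values measure only the spread between these samples.

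Each line was compared with K562, and K562/SSedit-2 with K/VP.5, and a gene was called higher or lower at a change of 2-fold or more with an adjusted p under 0.1 (edgeR quasi-likelihood test, Benjamini-Hochberg adjustment over all tested genes). In K/VP.5 against K562, 2 of the 8 genes rose (GYPB and RHCE), where 8.98% of all tested genes did, and 1 fell (SLC4A1), where 6.66% did. In K562/SSedit-2 against K562, 2 of the 8 genes rose (RHCE and SLC4A1), where 0.805% of all tested genes did. None of the 8 fell, where 1.26% of all genes did. At an unadjusted p under 0.05, 7 of the 8 differed in that comparison, all of them higher, where 22.7% of all tested genes differed in either direction, and DESeq2 and limma voom also called 2 higher and 0 lower. In K562/SSedit-2 against K/VP.5, 1 of the 8 rose (SLC4A1), where 6.20% of all genes did, and 1 fell (GYPB), where 9.62% did. The same genes were called without K562 replicate 1 and K562/SSedit-2 replicate 4. The comparisons share samples, so their values for a gene are not independent.

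With no fold cutoff, 6 of the 8 genes had an adjusted p under 0.1 in K/VP.5 against K562 (52.3% of all tested genes), 6 in K562/SSedit-2 against K562 (12.6%) and 5 in K562/SSedit-2 against K/VP.5 (54.0%). The replicates of the compared lines did not overlap for 6 of the 8 genes in K/VP.5 against K562 (43.0% of all tested genes), for 5 in K562/SSedit-2 against K562 (13.2%) and for 5 in K562/SSedit-2 against K/VP.5 (47.4%). The median log2 fold change of the 8 genes was 0.21, 0.68 and 0.25 in these comparisons in turn, against 0.0067, -0.0127 and -0.0133 for all tested genes. In K562/SSedit-2, all 8 estimates lay above 0 relative to K562, and 6 of 8 did in K/VP.5.

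**Figure D1:**
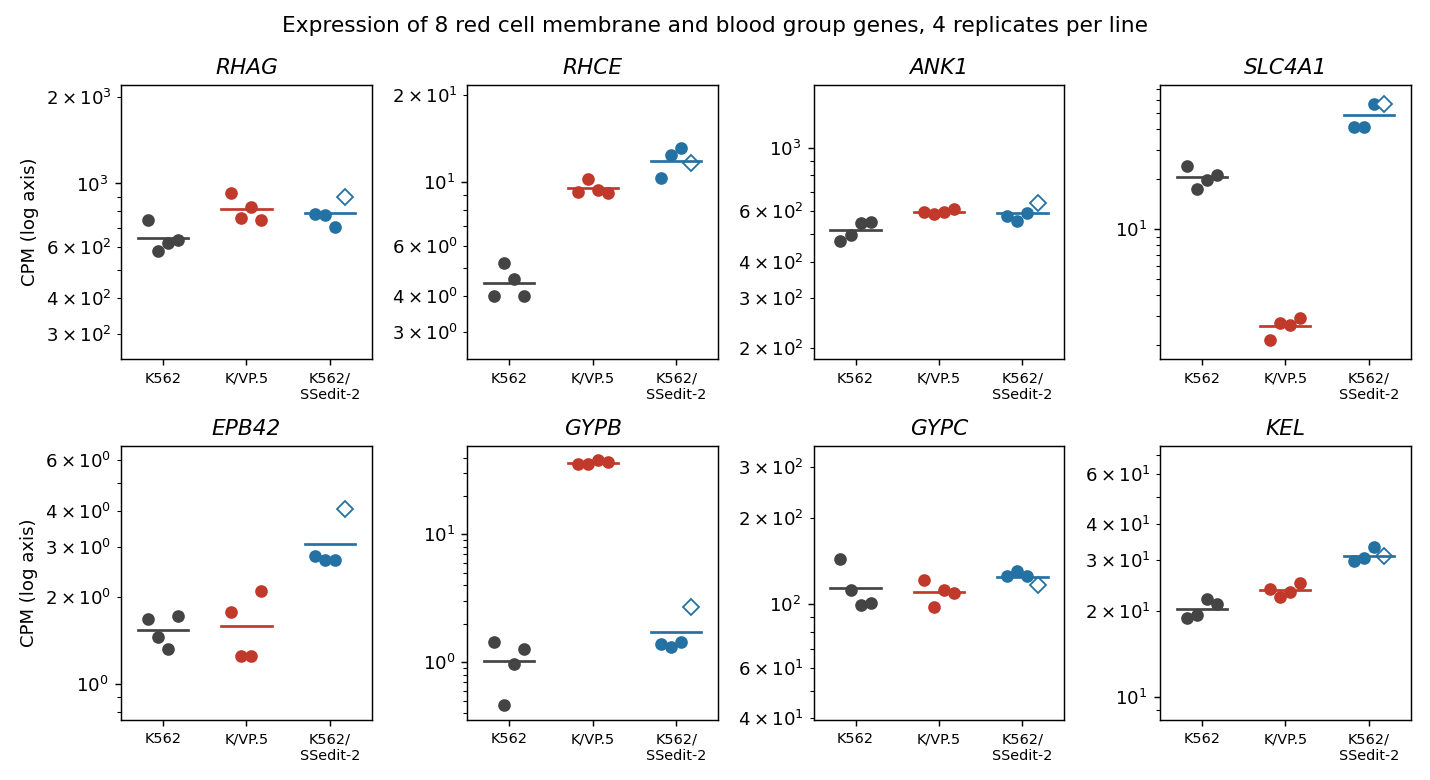
CPM of the 8 genes (log axis, range set per gene) in 4 replicates of each line, with a horizontal line at the mean and an open diamond for K562/SSedit-2 replicate 4. GYPB stands at 35.5 to 38.1 CPM in K/VP.5 and at no more than 2.685 CPM elsewhere, while SLC4A1 is lowest in K/VP.5 and highest in K562/SSedit-2.

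**Figure D2:**
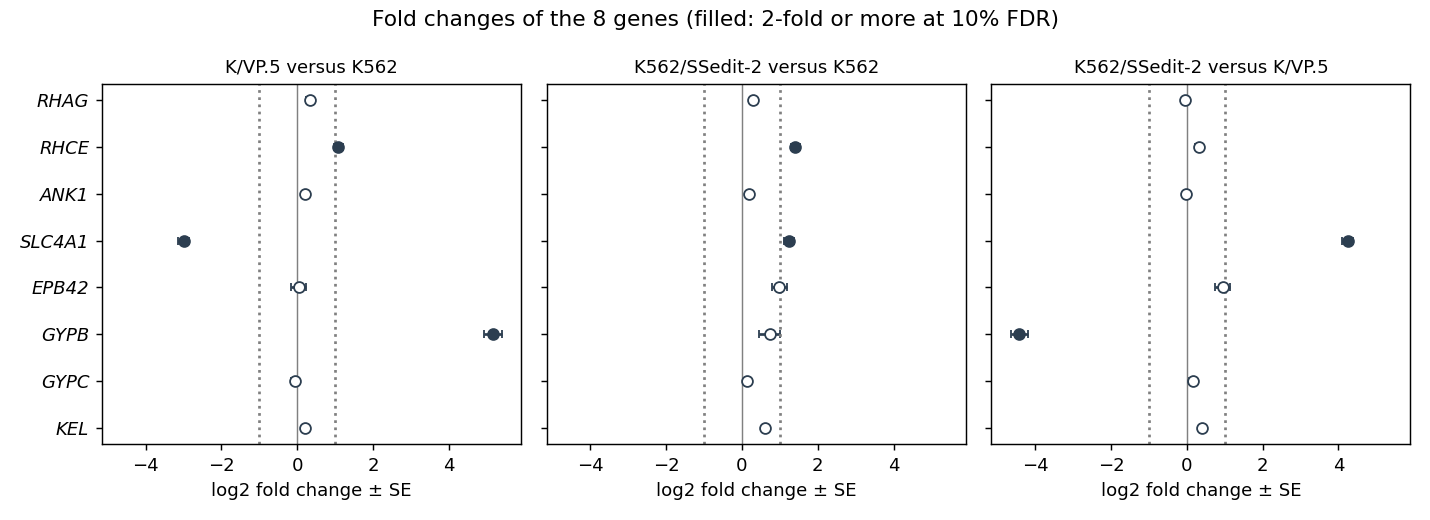
Log2 fold change with its standard error for the 8 genes in the 3 comparisons. Filled points are called at 2-fold and a 10% false discovery rate, and dotted lines mark a log2 fold change of 1 in either direction.

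The Rh proteins form a membrane complex in which RHAG, a channel for ammonia and carbon dioxide, is needed for RHCE and RHD to reach the cell surface. RHAG was at 744, 580.1, 622 and 634.5 CPM in K562 replicates 1 to 4. It was at 929.9, 756, 827.5 and 748 CPM in K/VP.5, and at 783, 776, 704 and 899.7 CPM in K562/SSedit-2. Both derived lines lay mostly above K562. The 4 K/VP.5 replicates were all higher, whereas K562/SSedit-2 replicate 3 fell below the highest K562 replicate. The log2 fold change was 0.34 ± 0.0923 (SE) in K/VP.5 (1.26-fold, adjusted p = 0.006603) and 0.29 ± 0.0923 in K562/SSedit-2 (1.23-fold, adjusted p = 0.06353), both under the 2-fold cutoff. Without K562/SSedit-2 replicate 4, the latter was 0.24 with an adjusted p of 0.1651, and it also missed the threshold without K562 replicate 2 (0.25, adjusted p = 0.1779) or K562 replicate 3 (0.28, adjusted p = 0.127). RHAG did not pass the test between the derived lines (log2 fold change -0.04 ± 0.0922, adjusted p = 0.7258).

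RHCE, which carries the C/c and E/e antigens, was the only gene of the 8 that rose in both derived lines relative to K562. In K562 it was at 4.01, 5.23, 4.58 and 4.01 CPM in replicates 1 to 4. The values were 9.22, 10.19, 9.38 and 9.15 CPM in K/VP.5, and 10.3, 12.4, 13.1 and 11.6 CPM in K562/SSedit-2. The 3 lines did not overlap, with K562 lowest and K562/SSedit-2 highest. The rise was 2.13-fold in K/VP.5 (log2 1.09 ± 0.113, adjusted p = 7.049e-07) and 2.66-fold in K562/SSedit-2 (log2 1.41 ± 0.113, adjusted p = 6.51e-07). K562/SSedit-2 exceeded K/VP.5 by 1.25-fold (log2 0.32 ± 0.109, adjusted p = 0.0229), which is under the 2-fold cutoff. Across all alternatives run, the log2 fold change stayed between 1.02 and 1.16 in K/VP.5 and between 1.36 and 1.4995 in K562/SSedit-2. RHD, the paralog that carries the D antigen and lies 31.8 kb from RHCE, had a log2 fold change of 0.71 ± 0.104 in K/VP.5 (adjusted p = 3.067e-05, under 2-fold) and rose by 1.15 ± 0.104 in K562/SSedit-2 (adjusted p = 2.51e-06). Of the 1422 windows of 150 bases in the canonical RHCE transcript, 16 (1.13%) also occur in RHD. How reads that fit both genes were counted is not given in the sources used here. RHCE also shares 113 exonic bases (4.64%) with TMEM50A on the opposite strand.

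ANK1, the adaptor that binds band 3 to spectrin, was at 474, 497, 546 and 550.1 CPM in K562 replicates 1 to 4. It was at 597.5, 586, 596 and 612 CPM in K/VP.5, and at 577, 555.5, 593 and 640.4 CPM in K562/SSedit-2. Both derived lines were above every K562 replicate, by less than 2-fold. The log2 fold change was 0.21 ± 0.0637 in K/VP.5 (1.16-fold, adjusted p = 0.01263) and 0.19 ± 0.0637 in K562/SSedit-2 (1.14-fold, adjusted p = 0.07398). Without K562/SSedit-2 replicate 4, the highest of its line, the second value was 0.17 with an adjusted p of 0.2195. It was 0.18 (adjusted p = 0.1788) without K562 replicate 2 and 0.20 (adjusted p = 0.1438) without K562/SSedit-2 replicate 3. It also missed the threshold in a fit of only those lines (0.205, adjusted p = 0.1721), with no expression filter (0.17, adjusted p = 0.287) and without K562 replicate 1 and K562/SSedit-2 replicate 4 together (0.12, adjusted p = 0.1994). Between K562/SSedit-2 and K/VP.5 the log2 fold change was -0.02 ± 0.0636 (adjusted p = 0.86). An antisense lncRNA, ENSG00000253389, shares 830 exonic bases (7.55%) with ANK1.

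SLC4A1 codes for band 3, the chloride-bicarbonate exchanger, and was the only gene of the 8 called in opposite directions in the derived lines. It was at 24.1, 17.6, 19.9 and 21.1 CPM in K562 replicates 1 to 4, from 739 to 877 counts. The 4 K/VP.5 replicates were at 2.15, 2.71, 2.64 and 2.91 CPM, from 86 to 102 counts. The K562/SSedit-2 replicates were at 41.3, 41.5, 56.9 and 56.6 CPM, from 1479 to 1898 counts. The 3 lines were fully separated. SLC4A1 fell to 0.126 of the K562 level in K/VP.5 (log2 -2.99 ± 0.149, adjusted p = 7.763e-11) and rose 2.38-fold in K562/SSedit-2 (log2 1.25 ± 0.126, adjusted p = 8.803e-06). The direct comparison put K562/SSedit-2 18.9-fold above K/VP.5 (log2 4.24 ± 0.152, adjusted p = 1.161e-12). Without K562/SSedit-2 replicate 4, the rise over K562 was 1.19 on the log2 scale (adjusted p = 3.204e-05).

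EPB42, a transglutaminase-like protein without enzyme activity that binds band 3 and ankyrin, was expressed at a low level. It was at 1.68, 1.45, 1.32 and 1.73 CPM in K562 replicates 1 to 4, from 49 to 71 counts, and at 1.77, 1.25, 1.245 and 2.10 CPM in K/VP.5, from 43 to 71 counts. In K562/SSedit-2 it was at 2.79, 2.71, 2.69 and 4.06 CPM, from 86 to 136 counts. All 4 K562/SSedit-2 replicates were above the 8 others, and replicate 4 was the highest. K562 and K/VP.5 overlapped (log2 fold change 0.04 ± 0.208, adjusted p = 0.8962). K562/SSedit-2 was 1.98-fold above K562 (log2 0.99 ± 0.198, adjusted p = 0.005209) and 1.93-fold above K/VP.5 (log2 0.95 ± 0.200, adjusted p = 0.0009014), just under the cutoff in both. The log2 value over K562 was 0.83 without K562/SSedit-2 replicate 4 and passed 1 in 7 of 18 alternatives, with a highest value of 1.06. A lncRNA on the same strand, ENSG00000285117, shares 447 exonic bases (15.2%) with EPB42, and 298 of its 2195 windows of 150 bases (13.6%) occur in that gene, so their reads are not fully separable.

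The glycophorins are sialic acid-rich proteins of the red cell surface. GYPB, which carries the S and s antigens, showed the largest change of the 8 genes. In K562 it was at 1.43, 0.460, 0.969 and 1.26 CPM in replicates 1 to 4, from 20 to 52 counts. The K/VP.5 replicates were at 35.8, 35.5, 38.1 and 36.8 CPM, from 1087 to 1433 counts. The K562/SSedit-2 replicates were at 1.395, 1.31, 1.44 and 2.685 CPM, from 46 to 90 counts. Every K/VP.5 replicate was far above the 8 other libraries, while K562 and K562/SSedit-2 overlapped. GYPB rose 35.8-fold in K/VP.5 (log2 5.16 ± 0.241, adjusted p = 3.525e-11). It was 0.0466 of that level in K562/SSedit-2 (log2 -4.42 ± 0.228, adjusted p = 1.194e-10). K562/SSedit-2 did not pass the test against K562 (log2 0.74 ± 0.275, adjusted p = 0.1157). That value was 0.45 (adjusted p = 0.3758) without K562/SSedit-2 replicate 4 and 0.93 (adjusted p = 0.03205) without K562 replicate 1. It was 0.86 without K562 replicate 4 (adjusted p = 0.09361) or K562/SSedit-2 replicate 2 (adjusted p = 0.09561), and 0.63 without K562 replicate 1 and K562/SSedit-2 replicate 4 together (adjusted p = 0.09705). With all libraries, it was 0.71 with no expression filter (adjusted p = 0.001562), 0.77 with upper-quartile scaling (adjusted p = 0.09105) and 0.75 with a filter at 1 CPM (adjusted p = 0.09417). In the fit with a replicate block, the value was 0.74 with an adjusted p of 0.07491, still under 2-fold. GYPB shares 151 exonic bases (7.92%) with the opposite-strand lncRNA ENSG00000286055, and 16 of its 415 windows of 150 bases (3.86%) occur in another gene, so part of its count is uncertain.

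GYPC, the glycophorin that anchors the membrane to the junctional complex, was not called in any comparison. It was at 144, 112, 99.3 and 100.6 CPM in K562 replicates 1 to 4, at 122, 97.8, 112 and 109 CPM in K/VP.5 and at 125, 131, 125 and 116 CPM in K562/SSedit-2. All 3 lines overlapped, and K562 replicate 1 was the highest of the 12. The log2 fold change was -0.05 ± 0.103 in K/VP.5 (adjusted p = 0.7345), 0.13 ± 0.103 in K562/SSedit-2 (adjusted p = 0.5253) and 0.17 ± 0.103 between K562/SSedit-2 and K/VP.5 (adjusted p = 0.1817). Without K562 replicate 1, the K562/SSedit-2 value was 0.26 with an adjusted p of 0.02673, and without K/VP.5 replicate 1 the difference between the derived lines was 0.25 with an adjusted p of 0.06623. That difference also had an adjusted p of 0.03949 in a fit of only those lines (0.18), 0.099 with a replicate block (0.18) and 0.01005 without K562 replicate 1 and K562/SSedit-2 replicate 4 (0.23), all under 2-fold.

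KEL codes for the Kell glycoprotein, a membrane endopeptidase bound to the XK protein. It was at 18.9, 19.3, 21.99 and 21.2 CPM in K562 replicates 1 to 4, at 23.9, 22.4, 23.2 and 25.1 CPM in K/VP.5 and at 29.8, 30.5, 33.3 and 31.03 CPM in K562/SSedit-2. The 3 lines were separated in that order. The difference from K562 was 1.16-fold in K/VP.5 (log2 0.22 ± 0.0752, adjusted p = 0.02776) and 1.53-fold in K562/SSedit-2 (log2 0.61 ± 0.0749, adjusted p = 6.137e-05). K562/SSedit-2 exceeded K/VP.5 by 1.32-fold (log2 0.40 ± 0.0748, adjusted p = 0.0003089). All of these are under the 2-fold cutoff. Without K562 replicate 2, the K/VP.5 value was 0.17 with an adjusted p of 0.1075, and with no expression filter it was 0.19 with an adjusted p of 0.2027.

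Levels of different genes were compared as CPM per kb of annotated exon. For each of the 8 genes, these exons together are longer than the canonical transcript, by unequal amounts. The lengths are 3609 against 1018 bases for GYPC, 10996 against 8292 for ANK1 and 1907 against 564 for GYPB. They are 2932 against 2344 for EPB42, 3660 against 2494 for KEL and 5125 against 4954 for SLC4A1. The order below depends on this choice and was not examined with canonical lengths. In K562, RHAG was highest at 245 ± 26.6 (SD, n = 4), followed by ANK1 at 47.0 ± 3.39, GYPC at 31.6 ± 5.75, KEL at 5.56 ± 0.407, SLC4A1 at 4.03 ± 0.532 and RHCE at 1.83 ± 0.237. GYPB at 0.541 ± 0.223 and EPB42 at 0.526 ± 0.0654 were lowest and within each other's spread. RHAG, ANK1 and GYPC kept the first places in all 3 lines. In K/VP.5, GYPB came next at 19.2 ± 0.610, ahead of KEL at 6.45 ± 0.313 and RHCE at 3.90 ± 0.197. EPB42 at 0.543 ± 0.143 and SLC4A1 at 0.508 ± 0.0634 were last there, within each other's spread. In K562/SSedit-2, SLC4A1 at 9.58 ± 1.73 and KEL at 8.51 ± 0.408 followed GYPC and differed by less than the SD of SLC4A1. RHCE at 4.87 ± 0.493 came before EPB42 at 1.04 ± 0.227 and GYPB at 0.896 ± 0.343, which again lay within each other's spread.

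Other genes of the same pathways were read from the same fit. The membrane skeleton list has 13 genes, all tested. In K/VP.5, 3 of them rose and 3 fell (8.98% and 6.66% of all tested genes), with a median log2 fold change of -0.26. Without K562 replicate 1 and K562/SSedit-2 replicate 4, 2 of them rose and 3 fell. The β-spectrin gene SPTB rose by 1.42 ± 0.115 (adjusted p = 3.478e-08) and the adducin gene ADD2 by 1.43 ± 0.0642 (adjusted p = 2.352e-11). MPP1, whose product binds glycophorin C, had a log2 fold change of -1.59 ± 0.0710 (adjusted p = 2.091e-11), and the stomatin gene STOM one of -1.215 ± 0.121 (adjusted p = 4.087e-07). In K562/SSedit-2 against K562, 0 of the 13 were called by edgeR, DESeq2 or limma voom, 8 had an unadjusted p under 0.05 (22.7% of all tested genes did) and the median was 0.24. Against K/VP.5, 3 of the 13 rose in K562/SSedit-2 (MPP1 by 2.03, STOM by 1.26 and the tropomyosin gene TPM1 by 1.16 on the log2 scale) and none of the 13 fell, where 6.20% of all tested genes rose and 9.62% fell.

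Of 30 other genes for blood group proteins, 24 were tested. In K/VP.5, 8 rose and 3 fell (8.98% and 6.66% of all tested genes), with a median log2 fold change of 0.42. The log2 fold change of EMP3 was -1.02, but -0.63 without K562 replicate 1 and K562/SSedit-2 replicate 4 and -0.91 with limma voom, under the cutoff in both. The largest rises were ABCG2 (Junior antigen, log2 5.27 ± 0.297, adjusted p = 3.936e-10), XK (Kell-bound protein, 5.19 ± 0.108, adjusted p = 1.96e-15), GYPE (a glycophorin gene 90.5 kb from GYPB, 4.77 ± 0.147, adjusted p = 2.178e-13) and BCAM (Lutheran antigen, 3.52 ± 0.205, adjusted p = 6.127e-10). XK, whose product is joined to Kell on the cell surface, was at 2.99 CPM in K562, 109 CPM in K/VP.5 and 5.29 CPM in K562/SSedit-2, whereas KEL differed from K562 by less than 2-fold in either line. In K562/SSedit-2 against K562, 2 of the 24 rose, ABCG2 by 1.502 ± 0.365 (adjusted p = 0.01809) and RHD as given above, none of the 24 fell, and the median was 0.08. Of all tested genes, 0.805% rose and 1.26% fell in that comparison. At an unadjusted p under 0.05, 16 of the 24 differed (22.7% of all tested genes did), and DESeq2 and limma voom also called 2 higher and 0 lower. ABCG2 was low in both of these lines, at 0.26 CPM in K562 and 0.74 CPM in K562/SSedit-2, against 10.1 CPM in K/VP.5. Its rise in K562/SSedit-2 was 1.07 (adjusted p = 0.08698, edgeR) without K562 replicate 1 and K562/SSedit-2 replicate 4. With limma voom it was 1.48 (adjusted p = 0.0513). Against K/VP.5, 9 of the 24 fell and 1 rose (9.62% and 6.20% of all tested genes), and without the same libraries ACHE was at -0.96 in place of -1.03, leaving 8 that fell. The largest were XK at -4.37, GYPE at -4.32, BCAM at -4.27 and ABCG2 at -3.76 on the log2 scale.

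Of 9 enzymes that build carbohydrate blood group antigens, 5 were tested. In K/VP.5, 2 rose and 1 fell, where 8.98% of all tested genes rose and 6.66% fell. FUT1, which makes the H antigen, rose by 2.63 ± 0.140 on the log2 scale (adjusted p = 1.788e-10) and GCNT2, of the I antigen, rose by 1.39 ± 0.237 (adjusted p = 0.0001403). GBGT1, the Forssman synthase gene, had a log2 fold change of -1.84 ± 0.137 (adjusted p = 1.233e-08). None of the 5 was called in K562/SSedit-2 against K562 by edgeR, DESeq2 or limma voom, and 1 had an unadjusted p under 0.05 (22.7% of all tested genes did). Against K/VP.5, GBGT1 rose by 1.70 in K562/SSedit-2, and FUT1 (-3.27) and GCNT2 (-1.68) fell, where 6.20% of all tested genes rose and 9.62% fell. Without K562 replicate 1 and K562/SSedit-2 replicate 4, no call of the 5 changed. With fewer libraries the filter on low counts also let in A4GALT, which had 24 counts over the K562 replicates, 77 over those of K/VP.5 and 6 over those of K562/SSedit-2, so that it passed through the line where it was high, and its calls are not counted here. The median log2 fold change of the 5 was 0.36 in K/VP.5, -0.17 in K562/SSedit-2 and -0.52 between the derived lines.

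Among 15 channels, pumps and transporters of the red cell membrane, the potassium-chloride cotransporter gene SLC12A7 rose in K/VP.5 (log2 1.25 ± 0.0980, adjusted p = 2.304e-08) and no other gene was called, where 8.98% of all tested genes rose and 6.66% fell. By edgeR, DESeq2 and limma voom, 0 of the 15 were called in K562/SSedit-2 against K562, and 7 had an unadjusted p under 0.05 (22.7% of all tested genes did). Against K/VP.5, SLC12A7 fell (-1.32) and the calcium pump gene ATP2B1 rose (1.04), where 9.62% of all tested genes fell and 6.20% rose. Without K562 replicate 1 and K562/SSedit-2 replicate 4, ATP2B1 was at 0.99 in this comparison, under the cutoff, and at -1.07 in K/VP.5 against K562, past the cutoff, in place of -0.98. The medians of the list were -0.06, -0.01 and 0.05.

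None of 8 erythroid transcription factors and cofactors was called by edgeR, DESeq2 or limma voom in any of the 3 comparisons. Their median log2 fold change from K562 was -0.69 in K/VP.5, where 7 of 8 had an unadjusted p under 0.05 (51.9% of all tested genes), and 0.01 in K562/SSedit-2, where 1 of 8 did (22.7% of all tested genes). GATA1 was at -0.49 ± 0.102 in K/VP.5 (adjusted p = 0.0008012), NFE2 at -0.91 ± 0.0603 (adjusted p = 2.936e-09) and KLF1 at -0.06 ± 0.0961 (adjusted p = 0.6418). TAL1 was the only one of the 8 above 0 there, at 0.65 ± 0.0815 (adjusted p = 5.304e-06). Between K562/SSedit-2 and K/VP.5 the median was 0.65, with an unadjusted p under 0.05 for 7 of 8 (53.3% of all tested genes). Without K562 replicate 1 and K562/SSedit-2 replicate 4, NFE2 passed the cutoffs in that last comparison (1.01 in place of 0.96). GATA1, NFE2, KLF1 and TAL1 were named after their values were seen.

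**Figure D3:**
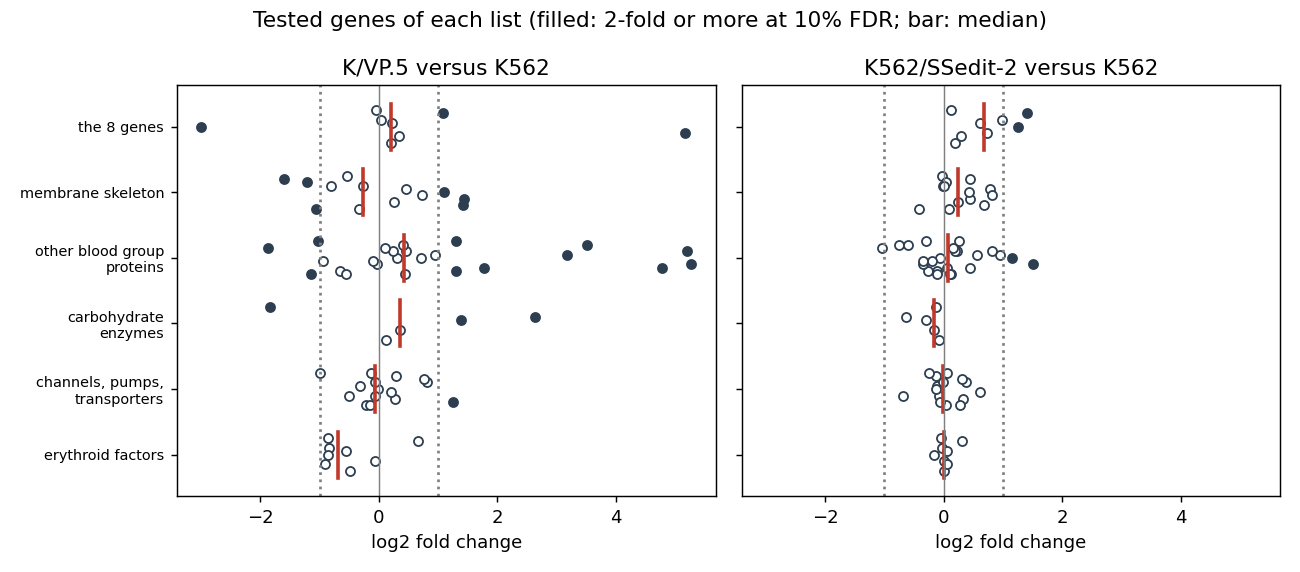
Log2 fold change of every tested gene in the 8-gene set and the 5 pathway lists, for K/VP.5 (left) and K562/SSedit-2 (right) relative to K562. Filled points are called, red bars are medians and dotted lines mark a log2 fold change of 1; filled points lie on both sides in K/VP.5 and are few in K562/SSedit-2.

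The genes most like each of the 8 were found by Pearson correlation of log2 CPM over the 12 samples, among 11189 protein-coding genes with a mean of at least 1 CPM. The samples share lines and library effects, so these values describe the pattern only. For GYPB they were ONECUT2 (r = 0.993), TMOD2 (0.993) and NFX1 (0.992), and for SLC4A1 they were MAGEB2 (0.993), PDLIM5 (0.990) and CD53 (0.990). For RHCE they were PPP1R14C (0.988), KRTCAP3 (0.978) and KIF1A (0.978). RHAG was most like POMP (0.980), CPED1 (0.943) and CCNH (0.941), GYPC most like PRDX2 (0.970), RPS15 (0.962) and SGMS1 (0.958), and ANK1 most like ZNF283 (0.966), WDR3 (0.959) and CCT2 (0.945). KEL was most like ENSG00000284931 (0.969), UQCRH (0.956) and C3orf52 (0.955), and EPB42 most like KCMF1 (0.911), DYNC1LI1 (0.910) and MRPS21 (0.908). Within the 8 genes, the correlation was -0.88 for GYPB with SLC4A1, 0.84 for RHCE with KEL and 0.82 for EPB42 with KEL.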

How the data were processed

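RNA-seq counts of 12 samples were used. The authors mapped paired reads to GRCh38 with HISAT2 and deposited whole-number counts per gene from featureCounts, not normalized, as the submitters' processing notes and the study's methods give them. How strand and reads with several positions were handled is not given in the sources used here. Of 60671 gene IDs, 60401 matched GENCODE 44, which supplied symbols and positions.

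Genes were kept by filterByExpr with a minimum count of 10 (18626 genes), scaled by TMM and fitted for all 12 samples by line with the quasi-likelihood test of edgeR 4.0.16 in R 4.3.3, with Benjamini-Hochberg adjustment. The cutoffs of 2-fold and an adjusted p under 0.1 are ones the study uses in its discussion of K562/SSedit-2. CPM use TMM-scaled library sizes. The SE was taken as the size of the log2 fold change over the root of its F value. The steps were tested on simulated data. Alternatives used DESeq2 1.42.0, limma 3.58.1, other scalings and filters, fits of only 2 lines, left-out replicates and a replicate block. Leaving out each replicate in turn was planned. Halving the library with only even counts, and leaving it out together with K562 replicate 1, were chosen after seeing the data. Motifs were matched with Python 3.11.15.

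All 8 members are named. From each pathway list, up to 4 called genes with the largest change per comparison are named, and for each member the 3 protein-coding genes most correlated with it. EMP3 and ACHE are named because their calls depended on libraries, and were chosen after their values were seen. Members and lists were chosen with earlier results of these data known. Proteins were not analysed here, and some genes of the lists are counted but not reported by name.

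Replicate numbers come from the labels. Same-numbered samples deviated together in K562/SSedit-2 and K562 (correlations of 0.135 to 0.292 across genes, 4 of 4 over 0.1), and in 2 of 4 pairs for K/VP.5 and K562 and 1 of 4 for K562/SSedit-2 and K/VP.5. Differently numbered samples of K562/SSedit-2 and K562 had a mean correlation of -0.067 but reached 0.128, close to the lowest same-numbered value. By this check all 4 same-numbered pairs passed 0.1 in the first of these comparisons only, which does not settle whether the numbers pair the samples. All values are from the fit without the block, and a blocked value is given where it passes a threshold that the unblocked value misses.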

Additional observations from a re-analysis of the deposited data

Results flagged for a closer look

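GYPB and EPB42 had 1 replicate of K562/SSedit-2 far from the other 3, and in both it was replicate 4, the library with only even counts. GYPB was at 2.685 CPM in that library and at 1.31 to 1.44 CPM in the others. EPB42 was at 4.057 CPM there and at 2.69 to 2.79 CPM in the others. These were 2 of 24 groups of 4 replicates examined, and chance alone flags about 1 in 20. The same library was the highest of its line for 4 of the 8 genes. K562 replicate 1, whose counts were not all even, was the highest of its own line for 4 of the 8 as well. With its counts halved, the log2 fold change from K562 was 0.65 for GYPB and 0.96 for EPB42, and without it 0.45 and 0.83. The part of the even counts in these values was not tested.

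SLC4A1 was called in opposite directions in the derived lines, lower in K/VP.5 and higher in K562/SSedit-2, with a difference between them of 4.24 on the log2 scale. That difference was tested directly and had an adjusted p of 1.161e-12 (edgeR), with all 4 K562/SSedit-2 replicates above all 4 K/VP.5 replicates.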

How the results depend on the processing

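The members called (3, 2 and 2 in the 3 comparisons) were called under every alternative run, with no change of direction. EPB42 joined them in 7 of 18 alternatives against K562 and in 5 of 18 against K/VP.5 (K562/SSedit-2, log2 fold changes up to 1.06 and 1.10), and other members joined them only where no fold cutoff was set. With no fold cutoff, 6, 6 and 5 members and 9747, 2356 and 10055 genes were called. Keeping genes with 1 CPM or more in 4 or more libraries gave 1923 genes for K/VP.5 and 246 for K562/SSedit-2, each against K562, in place of 2914 and 384, and tested fewer genes. With the replicate block, 2924, 398 and 2965 genes and the same members were called, and the K562/SSedit-2 log2 fold change of RHCE was 1.41. The block changed no call of a member. Values near 0 changed sign, and the cause was not tested: GYPC in K/VP.5 against K562 was 0.0264 with upper-quartile scaling, -0.129 to 0.0631 with each replicate left out and 0.0629 without both K562 replicate 1 and K562/SSedit-2 replicate 4. With each replicate left out, EPB42 in K/VP.5 was -0.104 to 0.1431, and between the derived lines RHAG was -0.106 to 0.0537 and ANK1 -0.049 to 0.0238. Genes of few counts, such as EPB42 and GYPB in K562, had the largest errors.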

Other observations

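The neighbourhoods of the 8 genes were examined for tested genes within 500 kb, and the genes named here were chosen after their values were seen. Near KEL, 4 of 12 tested genes fell in K/VP.5 (6.66% of all tested genes did) and 3 of these 4 rose in K562/SSedit-2 (0.805% of all tested genes did). EPHA1-AS1, at -1.14 in K/VP.5 (adjusted p = 0.01234, edgeR), was at 0.10 in K562/SSedit-2. EPHB6, an ephrin receptor gene 70.0 kb away, was at 6.72 CPM in K562, 2.08 CPM in K/VP.5 and 27.2 CPM in K562/SSedit-2 (log2 fold changes from K562 of -1.69 and 2.02, adjusted p of 5.755e-08 and 4.316e-08, edgeR). TRPV6, a calcium channel gene 55.4 kb away, changed by -2.10 and 1.52, and TRBC1, a T cell receptor constant gene 147.7 kb away, by -2.38 and 2.27, both from under 1 CPM in K562. KEL itself was above K562 in both lines by less than 2-fold. Near RHCE, 19 genes were tested and RHD was the only one called in K562/SSedit-2, where 0.805% of all tested genes were higher and 1.26% lower. By edgeR, 0 of these 19 were called in K/VP.5. Near SLC4A1, 27 genes were tested. In K/VP.5, where SLC4A1 fell, 5 of the 27 rose, where 8.98% of all tested genes did (ADAM11 by 3.30, MPP2 by 1.96, MPP3 by 1.78, FAM171A2 by 1.24 and NAGS by 1.03 on the log2 scale) and none of the 27 was called lower by edgeR.

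The lncRNAs ENSG00000251600 and ENSG00000286055, which overlap GYPB on the opposite strand, had log2 fold changes from K562 of 6.25 and 5.91 in K/VP.5. In K562/SSedit-2 their log2 fold changes from K562 were 2.07 and 2.49 (adjusted p of 0.0548 and 0.09457, edgeR). Their counts are not given here. Whether they passed the filter on low counts only through K/VP.5, where they were high, was not tested, so none of these values is relied on. With the strand setting of the counts not given, reads from the 151 exonic bases that GYPB shares with ENSG00000286055 (7.92% of those of GYPB) cannot be assigned to either gene.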
